A study of Mus musculus with 6 samples.

Results

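The matrix metalloproteinases (MMPs) and their tissue inhibitors (TIMPs) were examined in tumor-associated macrophages (TAMs) of mice with and without the complement C5a receptor, C5aR. The 10 members were the genes named Mmp2, Mmp3, Mmp9, Mmp12, Mmp13, Mmp14, Mmp19, Timp1, Timp2 and Timp3. They were taken by symbol from the 56980 genes of the expression matrix, and all 10 were present. MMPs are zinc-dependent proteases that cleave collagens, elastin and other components of the extracellular matrix. Most are secreted as inactive proenzymes and act once their prodomain has been removed. TIMPs bind the active site of MMPs and block it, and TIMP2 also takes part in activating proMMP2 at the cell surface together with MMP14. Macrophages are a known source of several MMPs in tumors, and the product of Mmp12 is also called macrophage elastase.

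The study injected ID8, a mouse ovarian cancer cell line, into the peritoneal cavity of female C57BL/6 wild-type (WT) mice and of C5aR-/- mice on the C57BL/6 background, bought at 6 to 8 weeks of age. Tumors were collected after 2 months in both groups, and live CD45+CD11b+Ly6G-F4/80+ cells were sorted by flow cytometry. Each group had 3 libraries, and the comparison asked how gene expression in TAMs differed without the receptor. C5aR was deleted only in the host, in all of its cells and not in macrophages alone. The study counts its RNA-seq groups in mice, with more mice per group than the libraries analysed here. The labels do not say that each library came from a separate mouse, so the p-values measure the spread between libraries, which may be technical. Expression was given as TPM, the transcripts of a gene per 1000000 transcripts after scaling for gene length. Each library has the same total, so the read depth behind a value is unknown.

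C5ar1, the gene for the deleted receptor, was checked first. It had 86.51, 37.32 and 16.18 TPM in the 3 WT libraries and 0.38, 0.11 and 0.05 TPM in the 3 C5aR-/- libraries, so it was low in every library labelled C5aR-/-. The log2 difference between C5aR-/- and WT TAMs, on the log2(TPM + 1) scale used throughout, was -5.04 (SE 0.56, limma, unadjusted p = 5.4e-05, adjusted p = 0.0666). Defining macrophage genes were abundant: Lyz2, the lysozyme of myeloid cells, had between 1150.58 and 5811.62 TPM, and Adgre1, which encodes F4/80, had between 25.35 and 114.35 TPM. The keratin gene Krt19, which macrophages are not known for, was also abundant in all libraries, at 432.67 to 1102.36 TPM. In such bulk samples, fewer cells of a type and less RNA per cell cannot be told apart.

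The members Mmp13, Mmp12 and Mmp3 lie on chromosome 9 in a cluster of 10 MMP genes, together with the related Mmp10 and Mmp8. The bases just upstream of 5 of the cluster's genes are shown, chosen after their values, given further on, were known. Mmp10 and Mmp12 were higher and Mmp8 lower in all C5aR-/- libraries than in all WT libraries. Mmp13 overlapped between the groups, and Mmp3 was too low to be tested. The sequences are the 120 bases before each annotated start in the RefSeq annotation of GRCm38.p6, the same assembly as the mm10 build named in the submitters' processing notes, all on the plus strand. Mmp12 has a pair of annotated starts, and both are given. Capitals mark TGANTCA, the binding motif of AP-1 (FOS and JUN family dimers), which reads the same on both strands.
Mmp13, chr9:7272394-7272513: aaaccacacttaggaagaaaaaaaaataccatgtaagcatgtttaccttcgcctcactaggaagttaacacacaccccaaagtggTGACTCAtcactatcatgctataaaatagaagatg
Mmp12 start 1, chr9:7344277-7344396: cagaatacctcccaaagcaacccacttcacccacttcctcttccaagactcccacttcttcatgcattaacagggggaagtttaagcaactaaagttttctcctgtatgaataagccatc
Mmp12 start 2, chr9:7347254-7347373: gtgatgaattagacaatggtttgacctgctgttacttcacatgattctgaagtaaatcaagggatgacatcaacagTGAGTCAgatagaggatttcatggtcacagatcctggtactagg
Mmp3, chr9:7445702-7445821: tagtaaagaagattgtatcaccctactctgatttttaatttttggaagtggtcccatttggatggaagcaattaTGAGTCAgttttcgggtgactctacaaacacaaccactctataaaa
Mmp10, chr9:7502222-7502341: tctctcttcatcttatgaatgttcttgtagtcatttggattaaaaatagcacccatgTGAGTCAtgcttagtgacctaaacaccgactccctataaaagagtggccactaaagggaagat
Mmp8, chr9:7558309-7558428: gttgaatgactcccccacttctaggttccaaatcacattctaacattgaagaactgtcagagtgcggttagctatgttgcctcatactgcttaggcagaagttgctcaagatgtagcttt

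The motif began 35 bases before the start in Mmp13, 46 in Mmp3, 63 in Mmp10 and 44 before the second start of Mmp12. It was not found in these windows of Mmp8 or of the first start of Mmp12. Within 250 bases before the start it occurred in 8 of the 10 genes of the cluster, in any of their windows, and in 0 of the 12 MMP and TIMP genes elsewhere in the genome that had a promoter entry. Besides the genes shown with it, these were Mmp1b, Mmp1a and Mmp20, listed at 0 TPM, and Mmp7, at most at 0.17 TPM. In all, 22 MMP and TIMP genes had an entry, 7 of them members, and the motif was present in 3 of those members. The members Mmp2, Mmp9 and Mmp19 had no entry and were not searched. Over all windows in the table the share with the motif was 6.75% (2217 of 32851). The genes of the cluster are tandem relatives that share sequence. A match is a description of the letters and not a mapped binding site, and its part in the expression values was not tested.

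Of the 10 members, 9 had at least 1 TPM in at least 3 of the 6 libraries and were tested. Mmp3 was below this filter. Mmp2 and Mmp12 met it through their C5aR-/- values, since only 1 and 2 of the 3 WT libraries reached 1 TPM. A gene was called when its limma p before adjustment was under 0.05 and its fold change was 2 or more. Of the 9 tested members, 2 (Mmp2 and Mmp12) were called higher in C5aR-/- TAMs and 0 were lower. Among all 14776 genes tested, 4.96% were called in either direction and 2.13% were higher in C5aR-/- TAMs. After adjustment over all genes, 0 of 14776 (0%) passed with limma, whereas 2133 genes were under 0.05 before adjustment, whatever their fold change. The median log2 difference of the 9 tested members was 0.24, beside -0.05 over all genes tested, and it ranged from 0.16 without C5aR-/- library 2 to 0.45 without WT library 3.

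Levels spanned a wide range within the family, and TIMP transcripts exceeded MMP transcripts in every library. In WT TAMs, mean TPM decreased in the order Timp2, Timp3, Timp1, Mmp14, Mmp9, Mmp19, Mmp13, Mmp12, Mmp2 and Mmp3. The values of Timp1 and Mmp14 overlapped, as did those of Mmp12 and Mmp2, and the other neighbors in this order did not overlap. In C5aR-/- TAMs the order was Timp2, Timp3, Mmp14, Timp1, Mmp13, Mmp9, Mmp12, Mmp2, Mmp19 and Mmp3. There, Mmp14 overlapped Timp1, and each neighbor from Mmp13 to Mmp19 overlapped the next.

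**Figure D1:**
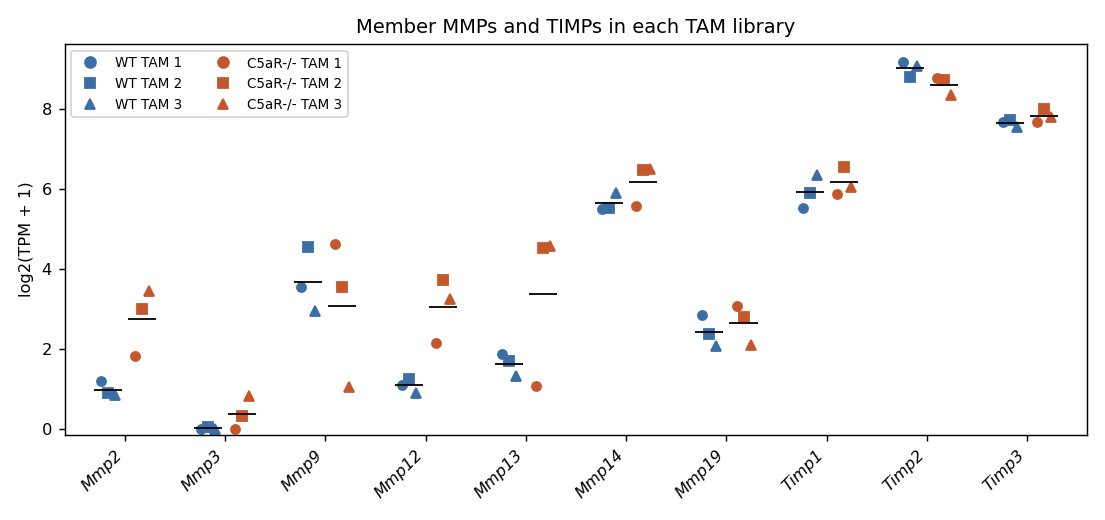
Expression of the 10 MMP and TIMP members, as log2(TPM + 1), in each of the 3 WT (blue) and 3 C5aR-/- (orange) TAM libraries, with the marker shape giving the library number and bars the group means. All C5aR-/- points lie above all WT points for Mmp2 and Mmp12 and below them for Timp2, and the C5aR-/- points of Mmp13 and Mmp9 are widely spread.

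Mmp12 encodes macrophage metalloelastase, which degrades elastin. It is ENSMUSG00000049723 in the matrix, at chr9:7344397-7360461. Its TPM was 1.15, 1.39 and 0.87 in WT libraries 1 to 3 and 3.43, 12.11 and 8.45 in C5aR-/- libraries 1 to 3. All C5aR-/- values were above all WT values, with C5aR-/- library 1 nearest to the WT range. The means were 1.14 ± 0.26 and 8.0 ± 4.36 TPM (SD, n = 3 each), a ratio of 7.04. On the log2 scale the difference was 1.95 (SE 0.41, limma, unadjusted p = 0.00241, adjusted p = 0.132).

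Mmp13 (ENSMUSG00000050578, chr9:7272514-7283333) encodes collagenase-3, which cleaves fibrillar collagen. It had 2.67, 2.25 and 1.48 TPM in WT libraries 1 to 3 and 1.09, 21.81 and 22.71 TPM in C5aR-/- libraries 1 to 3. C5aR-/- libraries 2 and 3 were far above every WT library, whereas C5aR-/- library 1 was the lowest of all 6. The groups therefore overlapped, and the log2 difference of 1.75 (SE 0.92, limma, unadjusted p = 0.101, adjusted p = 0.437) was past a fold change of 2 but not under a p of 0.05 before or after adjustment. Leaving out C5aR-/- library 1, which made the groups overlap, gave 2.91 (limma, adjusted p = 0.0162), in a fit that called 356 genes on adjusted p. Leaving out any of the other libraries gave 1.16 to 1.88, and none of these passed (limma, unadjusted p = 0.149 to 0.281).

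Mmp3 (ENSMUSG00000043613, chr9:7445822-7455975), stromelysin-1, a protease of broad specificity that also activates other proMMPs, was near 0 throughout. It was listed at 0, 0.04 and 0 TPM in WT libraries and at 0, 0.24 and 0.76 TPM in C5aR-/- libraries, too low to be tested.

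Mmp10, stromelysin-2, is the close relative of Mmp3 in the same cluster (ENSMUSG00000047562, chr9:7502342-7510242) and is not among the 10 members. Its TPM was 0.75, 0.5 and 0.41 in WT libraries and 8.51, 26.53 and 33.21 in C5aR-/- libraries. Every C5aR-/- value was more than 10 times the highest WT value, and the ratio of the means was 41.1. The log2 difference was 3.75 (SE 0.48, limma, unadjusted p = 1.3e-04, adjusted p = 0.0666). Mmp10 met the filter on low values only through its C5aR-/- libraries, where it was high.

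Mmp8, neutrophil collagenase (ENSMUSG00000005800, chr9:7558429-7568486), lies next to Mmp10 and had the opposite direction. Its TPM was 5.92, 11.28 and 2.06 in WT libraries and 1.0, 1.14 and 0.24 in C5aR-/- libraries, without overlap. The log2 difference was -1.87 (SE 0.53, limma, unadjusted p = 0.00992, adjusted p = 0.21). Of the other genes of the cluster, Mmp27 was under the filter with 0.05 to 2.11 TPM, its highest value being that of C5aR-/- library 1. Mmp7 was also under the filter, and Mmp20, Mmp1a and Mmp1b were listed at 0 in all 6 libraries.

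Taken as a sum, Mmp3, Mmp10, Mmp12 and Mmp13 gave 4.57, 4.18 and 2.76 TPM in WT libraries and 13.0, 60.7 and 65.1 TPM in C5aR-/- libraries. They made up 1.74% to 3.82% of the TPM of all 23 MMP genes in WT TAMs and 8.46%, 25.8% and 28.2% in C5aR-/- libraries 1 to 3. These genes were grouped after their values had been seen, so no test is given. The genes that flank the cluster were also looked at after the values of the cluster were known. Dcun1d5 on the one side had a log2 difference of -0.06, and Tmem123, Birc2 and Birc3 on the other had -0.37, -0.17 and 0.10. Dync2h1 had -0.44, and none of these 5 passed the unadjusted criteria.

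**Figure D2:**
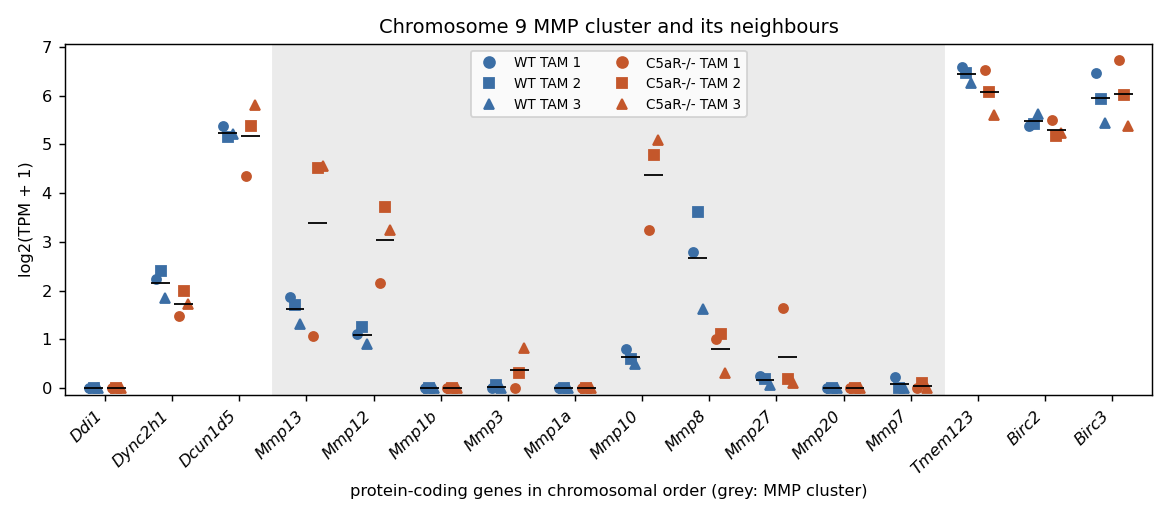
Expression, as log2(TPM + 1), of the 10 genes of the chromosome 9 MMP cluster (grey) and of 3 neighbors on each side, in chromosomal order, for each WT (blue) and C5aR-/- (orange) library, with bars for the group means. Mmp12 and Mmp10 are higher and Mmp8 lower in all C5aR-/- libraries than in all WT libraries, Mmp13 is high in C5aR-/- libraries 2 and 3 only, and the tested neighbors overlap between the groups.

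Mmp2 and Mmp9 encode the gelatinases, which degrade denatured collagen and the type IV collagen of basement membranes. Mmp2 (ENSMUSG00000031740, chr8:92827290-92853421) had 1.28, 0.87 and 0.81 TPM in WT libraries and 2.56, 6.93 and 9.84 TPM in C5aR-/- libraries. The lowest C5aR-/- value, in library 1, was above the highest WT value. Means were 0.987 ± 0.256 and 6.44 ± 3.66 TPM (SD, n = 3 each), a ratio of 6.53. The non-coding Gm45472 overlaps Mmp2 and had 0.35, 0.72 and 0.34 TPM in WT libraries and 0.22, 1.37 and 0.99 TPM in C5aR-/- libraries, so reads in the shared part are uncertain, above all at the low WT levels. The log2 difference was 1.77 (SE 0.42, limma, unadjusted p = 0.00458, adjusted p = 0.162).

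Mmp9 (ENSMUSG00000017737, chr2:164940326-164955850), which neutrophils also store, did not separate the groups. It had 10.66, 22.3 and 6.71 TPM in WT libraries and 23.48, 10.72 and 1.07 TPM in C5aR-/- libraries, so that the highest and the lowest values were both in C5aR-/- TAMs. The log2 difference was -0.61 (SE 0.91, limma, unadjusted p = 0.525, adjusted p = 0.8). It was 0.4 without C5aR-/- library 3, the library with the lowest value.

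Mmp14 (ENSMUSG00000000957, chr14:54431598-54442456) encodes MT1-MMP, a protease anchored in the cell membrane that activates proMMP2. It was the most abundant MMP of the 23, and gave 55.1% to 81.8% of the summed TPM of the 7 member MMPs. Its TPM was 44.36, 44.83 and 58.92 in WT libraries and 46.48, 87.56 and 89.74 in C5aR-/- libraries. C5aR-/- libraries 2 and 3 were above all WT libraries, and C5aR-/- library 1 was within the WT range. This gave a log2 difference of 0.54 (SE 0.28, limma, unadjusted p = 0.0965, adjusted p = 0.431).

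Mmp19 (ENSMUSG00000025355, chr10:128790910-128800827), a secreted MMP that also cleaves basement membrane proteins, had 6.23, 4.16 and 3.2 TPM in WT libraries and 7.38, 5.9 and 3.31 TPM in C5aR-/- libraries. The groups overlapped almost entirely, and the log2 difference was 0.22 (SE 0.33, limma, unadjusted p = 0.523). Its position overlaps that of Tmem198b, so reads in the shared part are uncertain.

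Timp2 (ENSMUSG00000017466, chr11:118301061-118355411) was the most abundant of all members and the only member whose values were all lower in C5aR-/- TAMs. It had 570.57, 444.7 and 532.71 TPM in WT libraries and 432.6, 417.68 and 321.13 TPM in C5aR-/- libraries. WT library 2 lay only slightly above C5aR-/- library 1. Means were 516.0 ± 64.6 and 390.5 ± 60.5 TPM (SD, n = 3 each), a ratio of 0.757, and the log2 difference was -0.41 (SE 0.17, limma, unadjusted p = 0.0545, adjusted p = 0.359), past neither threshold.

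Timp3 (ENSMUSG00000020044, chr10:86300412-86349505), which binds to the extracellular matrix and also inhibits ADAM proteases, was nearly level. Its TPM was 201.83, 209.91 and 185.34 in WT libraries and 201.57, 252.03 and 222.3 in C5aR-/- libraries, with overlap. The log2 difference was 0.17 (SE 0.13, limma, unadjusted p = 0.235). Timp1 (ENSMUSG00000001131, chrX:20870166-20874737), a secreted inhibitor that is induced in many inflamed tissues, had 45.02, 58.05 and 80.37 TPM in WT libraries and 57.74, 92.94 and 64.97 TPM in C5aR-/- libraries. The groups overlapped widely, and the log2 difference was 0.24 (SE 0.26, limma, unadjusted p = 0.396). Timp1 and Timp3 lie within the spans of Syn1 and Syn3, which had at most 0.85 and 1.07 TPM in any library.

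By the overlap of the groups alone, Mmp2 and Mmp12 were higher and Timp2 lower in all 3 C5aR-/- libraries than in all 3 WT libraries, and the other 6 tested members overlapped. Of all genes tested, 21.3% did not overlap between the groups, 8.84% being higher and 12.5% lower in C5aR-/- TAMs. With 3 libraries a group, an exact permutation test of a single gene cannot go below a two-sided p of 0.1.

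**Figure D3:**
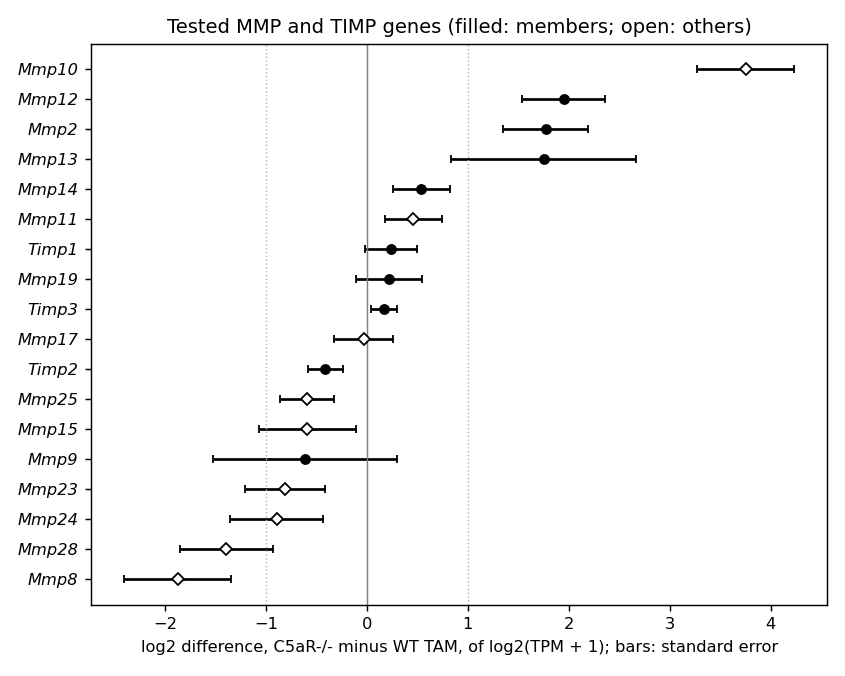
Log2 difference between C5aR-/- and WT TAMs, on the log2(TPM + 1) scale, for the 18 tested MMP and TIMP genes (filled circles, members; open diamonds, others), with bars for the standard error and dotted lines at a fold change of 2 in either direction. Mmp10, Mmp12, Mmp2 and Mmp13 lie to the right of the upper line and Mmp28 and Mmp8 to the left of the lower one. The 3 TIMPs lie between the lines, with Timp2 below 0.

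Summed over the members, the MMPs gave 66.3, 75.8 and 72.0 TPM in WT libraries and 84.4, 145.3 and 135.9 TPM in C5aR-/- libraries. These did not overlap, but the sum of C5aR-/- library 1 includes 23.48 TPM of Mmp9, which did not separate the groups. Over all 23 MMP genes the sums overlapped, with 119.7, 145.3 and 158.6 TPM in WT libraries and 154.0, 235.2 and 231.1 TPM in C5aR-/- libraries. The TIMPs gave 817.4, 712.7 and 798.4 TPM in WT libraries and 691.9, 762.6 and 608.4 TPM in C5aR-/- libraries. The ratio of the TIMP sum to the MMP sum was 12.3, 9.4 and 11.1 in WT libraries and 8.2, 5.25 and 4.48 in C5aR-/- libraries, so TIMP transcripts outnumbered MMP transcripts in all 6. The ratio averaged 10.9 ± 1.47 in WT TAMs and 5.97 ± 1.96 in C5aR-/- TAMs (SD, n = 3 each), and the groups did not overlap. Mmp14 and Timp2 dominate these sums: Timp2 made up 62.4% to 69.8% of the TIMP sum in WT TAMs and 52.8% to 62.5% in C5aR-/- TAMs. The sums describe transcripts and not active enzyme, and no test is given for a value over chosen members.

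**Figure D4:**
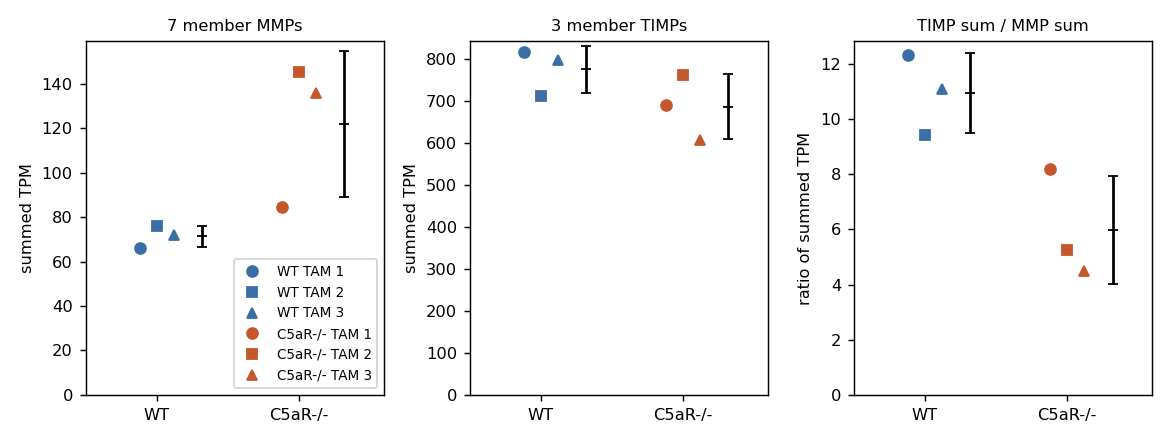
Summed TPM of the 7 member MMPs (left) and of the 3 member TIMPs (middle), and the ratio of the TIMP to the MMP sum (right), in each WT (blue) and C5aR-/- (orange) library, with the mean and SD of each group beside the points and all axes starting at 0. The C5aR-/- libraries lie above the WT libraries in the sum of the 7 member MMPs, overlap them in the TIMP sum and lie below them in the ratio.

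Among the genes whose log2(TPM + 1) values were most alike to those of Mmp14 over the 6 libraries were Anxa8 (Pearson r = 0.997), Hist1h1e (r = 0.992), Medag (r = 0.991) and Tead2 (r = 0.991). Anxa8, which encodes an annexin, had 34.65, 29.58 and 65.85 TPM in WT libraries and 36.54, 216.17 and 202.02 TPM in C5aR-/- libraries. It was thus low in C5aR-/- library 1, as Mmp14 was. For Timp2 the closest genes were Slc45a3 (r = 0.985), Adhfe1 (r = 0.982), Jade2 (r = 0.981), Krtdap (r = 0.980) and Cobl (r = 0.978). With 6 points and all tested genes to choose from, such values are high by selection, and the points share their libraries.

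Of the 17 MMP and TIMP genes outside the members, 9 were tested, of which Mmp10 passed the unadjusted criteria higher and Mmp8 and Mmp28 lower in C5aR-/- TAMs, beside 4.96% of all genes called. The median log2 difference of these 9 was -0.59, with 2 above 0 and 7 below. Mmp28, epilysin, had 4.56, 8.74 and 8.3 TPM in WT libraries and 0.62, 2.38 and 4.09 TPM in C5aR-/- libraries, without overlap. Its log2 difference was -1.39 (SE 0.46, limma, unadjusted p = 0.0204, adjusted p = 0.262). It overlaps 1700020L24Rik, which had 4.97, 7.55 and 6.15 TPM in WT libraries and 1.25, 2.38 and 4.66 TPM in C5aR-/- libraries, so the reads of these genes may not be told apart. Without WT library 2, WT library 3 or C5aR-/- library 1, Mmp28 no longer met the criteria.

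The remaining tested relatives did not pass. Mmp25, a membrane-anchored MMP of leukocytes, had a log2 difference of -0.59 (limma, unadjusted p = 0.0633), and Mmp23 had -0.81 (limma, unadjusted p = 0.0846). Mmp23 overlaps the more abundant Mib2, at 25.47 to 42.62 TPM, and Mmp24 overlaps BC029722, at 22.45 to 51.45 TPM, so reads of both MMPs in the shared parts are uncertain. Mmp11, stromelysin-3, was the most abundant MMP outside the members, with 25.7, 28.25 and 53.44 TPM in WT libraries and 42.26, 47.58 and 51.29 TPM in C5aR-/- libraries, which overlapped. Mmp15, Mmp17 and Mmp24, all membrane-type MMPs, had differences of -0.59, -0.03 and -0.89. Timp4, Mmp16 and Mmp21 were below the filter. Over all 27 MMP and TIMP genes, 18 were tested, 3 passed higher and 2 lower, beside 2.13% of all genes called higher and 4.96% in either direction, and the median difference was 0.07.

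Of 19 genes whose products activate, bind or carry MMPs, 15 were tested, with 0 called higher and 1 lower (4.96% of all genes were called in either direction), and a median log2 difference of 0.12. By overlap, 4 of the 15 were higher and 2 lower in all C5aR-/- libraries, where 21.3% of all genes did not overlap. The gene called lower was Lcn2, a lipocalin that forms a complex with MMP9. It had 45.67, 76.05 and 116.55 TPM in WT libraries and 20.06, 20.56 and 5.2 TPM in C5aR-/- libraries, without overlap (log2 difference -2.41, SE 0.56, limma, unadjusted p = 0.00391, adjusted p = 0.156). Cd63, a tetraspanin that binds TIMP1, was the most uniform: it had 309.83, 299.22 and 307.42 TPM in WT libraries and 537.48, 480.84 and 489.88 TPM in C5aR-/- libraries. Its log2 difference of 0.72 (SE 0.12, limma, unadjusted p = 5.9e-04, adjusted p = 0.0922) was below a fold change of 2. Also below it were Itgb3, an integrin subunit, at 0.72 (limma, unadjusted p = 0.0267) and Cd9, another tetraspanin, at 0.38 (limma, unadjusted p = 0.0317). Lrp1, an endocytic receptor that clears MMPs and TIMPs, had -0.31 (limma, unadjusted p = 0.0947).

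Among the ADAM and ADAMTS proteases, relatives of the MMPs that shed membrane proteins or cleave proteoglycans, 16 of 27 were tested, with 1 called higher and 0 lower, a share near the 4.96% of all genes called, and a median of 0.17. The median was -0.0022 with no filter and 0.059 to 0.15 when a library was left out. The gene called higher was Adamdec1, a soluble ADAM-like protease, with 0.16, 0.09 and 0.43 TPM in WT libraries and 1.9, 4.15 and 5.96 TPM in C5aR-/- libraries. Its log2 difference was 1.95 (SE 0.36, limma, unadjusted p = 0.00123, adjusted p = 0.106), and like Mmp10 it met the filter only through the C5aR-/- libraries. Adamts10 at -0.53 (limma, unadjusted p = 0.00458) and Adamts9 at 0.82 (limma, unadjusted p = 0.0141) did not overlap between the groups but were below a fold change of 2. Adam19 had -0.65 and Adam15 -0.58, with overlap.

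The cathepsins, lysosomal proteases, and their cystatin inhibitors were all tested, with 0 of 16 called higher and 1 lower, again near the 4.96% of all genes, and a median of 0.21. The median was -0.064 without C5aR-/- library 1 and 0.43 without C5aR-/- library 3. Ctsg, the neutrophil serine protease cathepsin G, was the gene called lower, with 6.51, 13.27 and 2.62 TPM in WT libraries and 2.46, 1.7 and 0.16 TPM in C5aR-/- libraries (log2 difference -1.72, SE 0.61, limma, unadjusted p = 0.0261, adjusted p = 0.284). It no longer met the criteria without WT library 1, WT library 2 or C5aR-/- library 3. Ctss, the cysteine protease that processes the invariant chain in antigen-presenting cells, had 611.04, 341.26 and 427.32 TPM in WT libraries and 1050.11, 834.18 and 589.83 TPM in C5aR-/- libraries. These overlapped, with a log2 difference of 0.84 (limma, unadjusted p = 0.0239). Ctso, Cstb and Ctse had differences of -0.51, 0.43 and -1.0.

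Of 23 matrix genes whose products MMPs are known to cleave, all were tested, 3 were called higher and 2 lower, beside 2.13% of all genes called higher and 4.96% in either direction, and the median was 0.39. Spp1, which encodes osteopontin, had 47.98, 48.3 and 49.56 TPM in WT libraries and 184.06, 226.08 and 343.86 TPM in C5aR-/- libraries. Its log2 difference was 2.3 (SE 0.23, limma, unadjusted p = 2.8e-05, adjusted p = 0.0666). The other genes called higher were the chains of type IV collagen, the basement membrane collagen that gelatinases degrade: Col4a1, at 34.0 ± 2.41 TPM in WT and 78.6 ± 3.47 TPM in C5aR-/- TAMs (SD, n = 3 each), and Col4a2, at 35.3 ± 4.58 and 91.9 ± 10.1 TPM. Their log2 differences were 1.19 (SE 0.12) and 1.36 (SE 0.15), each at an adjusted p of 0.0666 in limma. Col1a2, a chain of fibrillar type I collagen, was called lower at -1.87 (SE 0.52, limma, adjusted p = 0.207), and so was Col6a2, a chain of type VI collagen, at -1.59 (SE 0.48, limma, adjusted p = 0.225). Their means were 12.8 ± 9.82 and 70.4 ± 18.8 TPM in WT TAMs and 2.17 ± 0.374 and 25.5 ± 15.2 TPM in C5aR-/- TAMs. The partner chain of Col1a2 did not share this direction: Col1a1 had a log2 difference of 1.91 (SE 1.56, limma, unadjusted p = 0.262) and overlapped. Col5a1, a chain of type V collagen, at 1.86 (SE 1.34, limma, unadjusted p = 0.208) and Tnc, the matrix glycoprotein tenascin-C, at 1.97 (SE 0.93, limma, unadjusted p = 0.0752) were likewise not called. All 3 were below or within the WT range in C5aR-/- library 1 and above every WT library in C5aR-/- libraries 2 and 3. Col1a1, Col5a1 and Tnc were named after their values were seen.

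Marker genes of other cells differed between the same libraries. The 11 neutrophil markers summed to 1094.3, 2555.8 and 663.5 TPM in WT libraries and 241.9, 441.8 and 33.4 TPM in C5aR-/- libraries, without overlap, although the sort excluded Ly6G+ cells. S100a9 was the most abundant, 10 of the 11 were tested, and 6 were called lower. The share of all genes called in either direction, 4.96%, is also the background for the marker lists that follow. Ly6g itself had 0.62, 4.94 and 0.92 TPM in WT libraries and 0, 0.56 and 0 TPM in C5aR-/- libraries. Mmp8 and Mmp9 products are stored in neutrophil granules. WT library 2 had the highest neutrophil sum and the highest Mmp8, and C5aR-/- library 3 had the lowest sum, the lowest Mmp8 and the lowest Mmp9. The highest Mmp9 of all, however, was in C5aR-/- library 1, whose neutrophil sum was below that of every WT library. The part of these markers in the values of Mmp8, Mmp9, Lcn2 and Ctsg was not tested.

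The 10 macrophage markers summed to 8774.8, 3536.2 and 2451.4 TPM in WT libraries and 8589.8, 4904.1 and 2367.4 TPM in C5aR-/- libraries, overlapping, with 0 of 10 called and Lyz2 the most abundant. C5aR-/- library 1 had the highest macrophage sum of its group and the lowest Mmp2, Mmp10, Mmp12, Mmp13 and Mmp14. In WT TAMs, library 1 had the highest macrophage sum and also the highest Mmp2, Mmp10 and Mmp13, but the lowest Mmp14, and its Mmp12 was in the middle. The part of macrophage content in these values was not tested.

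The 10 fibroblast markers, of which Dcn was the most abundant, summed to 413.2, 488.2 and 648.3 TPM in WT libraries and 568.1, 445.2 and 476.7 TPM in C5aR-/- libraries. Of the 6 tested, 0 were called higher and 2 lower, and Pdgfrb, Lum and Fap had at most 0.96, 0.61 and 1.48 TPM. Pdgfra was more abundant than these, with 9.56, 13.54 and 13.01 TPM in WT libraries and 4.44, 9.51 and 26.72 TPM in C5aR-/- libraries. Col1a1 had 3.52, 7.13 and 10.82 TPM in WT libraries and 1.21, 43.34 and 235.85 TPM in C5aR-/- libraries. It was thus low in C5aR-/- library 1 and high in C5aR-/- libraries 2 and 3, the libraries in which Mmp2, Mmp13 and Mmp14 were highest. Col1a1 was the only tested fibroblast marker with a difference above 0, and the median of the 6 was -0.75. In C5aR-/- libraries 1 to 3, Dcn had 547.94, 372.26 and 180.14 TPM, Thy1 had 10.28, 4.63 and 2.98 TPM, Col3a1 had 1.71, 11.65 and 27.21 TPM, and Col1a2 had 1.75, 2.31 and 2.46 TPM. Over these 3 libraries Col1a1, Col1a2, Col3a1 and Pdgfra had the same order as Mmp2, and Dcn and Thy1 the opposite order. The 10 mesothelial markers, led by Krt19, summed to 2730.3, 3056.8 and 3575.1 TPM in WT libraries and 2017.4, 2245.1 and 1316.1 TPM in C5aR-/- libraries. These sums did not overlap, and 0 of the markers were called higher and 5 lower. Msln, mesothelin, had the opposite direction, with 145.48, 134.54 and 179.55 TPM in WT libraries and 267.85, 284.01 and 288.22 TPM in C5aR-/- libraries. The 10 epithelial markers, which ID8 cells could supply and which also include Krt19, summed to 1956.4, 1882.1 and 2079.4 TPM in WT libraries and 2314.7, 2264.6 and 1807.1 TPM in C5aR-/- libraries, with 1 of 7 tested called higher. Fibroblasts and mesothelial cells are known to make Mmp2, Mmp14 and TIMPs. The CD45+CD11b+F4/80+ gate selects against them and against ID8 cells. Even so, the fibroblast, mesothelial and epithelial sums were at least 413.2, 1316.1 and 1807.1 TPM in every library. The part of fibroblasts, mesothelial cells and ID8 cells in the values of Mmp2, Mmp14 and the TIMPs was not tested.

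Of 7 mast cell markers tested, 6 were called lower, whereas Kit was called higher. Kit was the most abundant over both groups, but Hdc, at 67.19, 84.81 and 60.03 TPM, exceeded it in every WT library. The 8 summed to 172.0, 170.4 and 200.4 TPM in WT libraries and 68.5, 80.6 and 90.1 TPM in C5aR-/- libraries. Of the 8 endothelial, 7 dendritic and 10 lymphocyte markers, 4, 6 and 9 were tested and 0 were called.

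**Figure D5:**
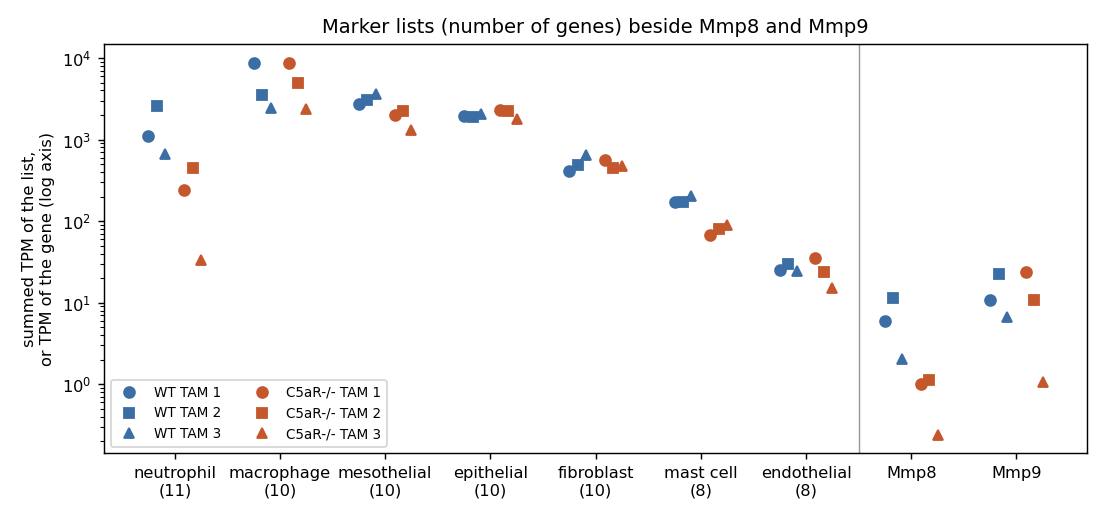
Summed TPM (log axis) of 7 lists of cell type markers, with the number of genes in each list in parentheses, beside the TPM of Mmp8 and Mmp9, in each WT (blue) and C5aR-/- (orange) library. The neutrophil and mast cell sums and Mmp8 are lower in all C5aR-/- libraries than in all WT libraries, C5aR-/- library 3 is the lowest in the neutrophil sum, Mmp8 and Mmp9, and the macrophage sums overlap.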

How the data were processed

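Gene expression was measured by RNA-seq of sorted TAMs. Per the submitters' processing notes, fastp, HISAT2, StringTie, RSEM and DESeq2 were used with mm10, versions not given in the sources used here. The authors deposited TPM per gene, scaled by length and library total, which keeps no read depth. Their 2 columns of group means were not used, and no column of another sample was present. The count tests named in the study (edgeR, DESeq2) could not be used on TPM. Instead, limma 3.58.1 (R 4.3.3) was run on log2(TPM + 1) with eBayes and a trend, over the 14776 genes with at least 1 TPM in at least 3 of 6 libraries, with Benjamini-Hochberg adjustment over all of them. Genes were called at a p below 0.05 with a fold change of 2 or more. The procedure was tested on simulated data. Symbols came from the matrix's Ensembl IDs (52073 matched). Named were the 10 members, C5ar1, the 5 tested genes of smallest p in each protease, partner or substrate list, and the 5 genes most correlated with the most abundant MMP and TIMP, of which 1 is not reported here. Flanking and marker genes, and genes to which a count points, were named beyond this rule. Members and lists were chosen with earlier results of these data known. No pair of libraries held identical values. Strandedness of the counting was not stated. Promoter sequences are from RefSeq. Pseudocount, filter, scaling, weights, variance model, replicate block and each library were varied.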

Additional observations from a re-analysis of the deposited data

How the results depend on the processing

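The count of genes called on adjusted p was 0, and became 1400 with array weights, 2 without the trend and 0 to 356 when a library was left out, 356 being without C5aR-/- library 1. The estimated weights ranged from 0.173 for C5aR-/- library 1 to 38.6 for C5aR-/- library 2, so that fit rests largely on 1 library. Called on p before adjustment were 733 genes, which became 475 at a filter of 5 TPM (11177 genes tested), 1410 under array weights and 567 to 1266 when a library was left out. The 3151 genes without overlap became 3645 to 6209 with 1 library fewer, where fewer samples have to be separated. The count of members called, 2, became 0 at a filter of 5 TPM, under which Mmp2, Mmp12 and Mmp13 were not tested, and 2 to 3 when a library was left out, Mmp13 being the third without C5aR-/- library 1.

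Mmp2 and Mmp12 met the unadjusted criteria in all 13 alternatives that tested them, Mmp10 in all 14, and Mmp13 in 2 of 13. Adjusted p over the alternatives ranged from 2.0e-04 to 0.554 for Mmp2, from 1.9e-04 to 0.477 for Mmp12, from 7.1e-04 to 0.767 for Mmp13 and from 1.0e-04 to 0.329 for Mmp10. Without C5aR-/- library 1, the fit that called 356 genes, limma gave adjusted p of 0.0199 for Mmp2, 0.0177 for Mmp12 and 0.0162 for Mmp10. Leaving out a library gave log2 differences of 1.43 to 2.23 for Mmp2, 1.61 to 2.39 for Mmp12, 0.38 to 0.84 for Mmp14, 0.017 to 0.5 for Mmp19, 0.042 to 0.45 for Timp1, -0.51 to -0.27 for Timp2 and 0.09 to 0.25 for Timp3. Of 479 values for 35 genes, 1 reversed: Mmp9, which ranged from -1.38 without C5aR-/- library 1 to 0.4 without C5aR-/- library 3, and the cause was not tested. A pseudocount of 0.1, no filter, quantile normalization and median-of-ratios scaling changed no count of calls by over 1.5 times. The median of the members, 0.24, was 0.66 with array weights, under which Timp1 also had 0.66. The median of the other MMP and TIMP genes, -0.59, was 0.46 at a filter of 5 TPM and -0.21 with no filter. It was -1.04 with a pseudocount of 0.1 and -0.36 without C5aR-/- library 3. The median of the genes that activate, bind or carry MMPs, 0.12, was 0.28 without WT library 1. The replicate numbers do not pair the libraries: deviations of same-numbered libraries correlated at 0.19, -0.01 and 0.27, and a fit with the replicate block called 0 genes on adjusted p and 811 before adjustment. Depth is unknown, so counting error could not be given for low genes such as Mmp3.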
